A study of Mus musculus with 30 samples.

Results

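The cryptdin-related defensins examined here were 3 gene symbols of a mouse expression array, LOC100044289, Defcr-rs7 and AY761185, each represented by 1 probe (ILMN_1231270, ILMN_2607813 and ILMN_2903718, respectively). The rows were those of the non-normalized signal table whose symbol equals one of these names, 3 of 25697 rows and 3 of 18097 gene symbols. The symbols had been chosen by their readout, the mean change on doxycycline (Dox) withdrawal over 4 rescue clones with the same sign in each, so their changes in those clones are given as a description and carry no test. A further 15 rows of 10 symbols that start with Defcr or Defa, other alpha-defensins on the array, were read alongside them.

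Mouse embryonic stem cells (ESCs) of the Ainv15 line, which express the reverse tetracycline transactivator, carried an shRNA against 1 phospho-regulator together with a Dox-inducible cDNA of the same gene that the shRNA does not target. With Dox (1 µg/ml) the cDNA replaces the depleted product, and without Dox for 5 days the depletion is uncovered. The 4 rescue clones were Bub1b_R (a spindle checkpoint kinase), Chek1_R (a DNA damage checkpoint kinase), Ppm1g_R (a metal-dependent phosphatase) and Ppp2r1b_R (a scaffold subunit of phosphatase 2A), and Ctrl_R was the control clone. All cells expressed the transactivator and were grown with LIF, and the ESCs were separated from the feeder fibroblasts on which they are kept. Each clone was measured with and without Dox on 3 arrays labelled as replicates, which made 10 conditions and 30 arrays. Nothing in the labels says that the 3 arrays of a condition came from separate cultures or clones, so each p-value measures only the spread between these arrays, which may be technical. In a mixed culture, a higher signal in every cell and a larger share of cells with the signal cannot be told apart.

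Alpha-defensins are small cationic peptides with several disulfide bonds that disrupt microbial membranes. In the mouse they are called cryptdins, because Paneth cells at the base of the small intestinal crypts store and secrete them, and matrilysin (Mmp7) cuts the precursors there. The cryptdin-related sequences resemble the cryptdins in the signal and propeptide part of the precursor and differ in the mature peptide. Their genes are close copies that lie together in 1 cluster of mouse chromosome 8, and transcription factors of the TCF/LEF family act on cryptdin genes in Paneth cells.

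Because the members moved together, the sequence just upstream of the start was compared for those with an entry in the RefSeq promoter table (GRCm38.p6). Defcr-rs7 is listed there as Defa31 and AY761185 under its own name, whereas LOC100044289 had no entry. Below are the 250 bases before each start, 5′ to 3′ in the direction of the gene, AY761185 from the minus strand at chr8:20944749-20944998 and Defa31 from the plus strand at chr8:21191323-21191572. Capitals mark every match, on either strand, to CTTTGAT (a TCF/LEF motif) or TTTATNG (a CDX motif).
AY761185: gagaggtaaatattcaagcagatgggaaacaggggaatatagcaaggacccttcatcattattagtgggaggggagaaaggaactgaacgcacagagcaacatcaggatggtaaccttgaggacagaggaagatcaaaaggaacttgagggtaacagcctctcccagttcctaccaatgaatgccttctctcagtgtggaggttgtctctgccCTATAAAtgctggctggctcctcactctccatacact
Defa31: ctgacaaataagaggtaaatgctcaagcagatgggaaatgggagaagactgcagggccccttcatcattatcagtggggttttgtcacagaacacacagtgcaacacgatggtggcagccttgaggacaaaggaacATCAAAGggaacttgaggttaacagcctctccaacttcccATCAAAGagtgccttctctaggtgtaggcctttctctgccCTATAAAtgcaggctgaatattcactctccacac

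Both windows held 1 CDX match, which lies in each on the opposite strand and overlaps the letters of a TATA box, 37 to 31 bases before the start of AY761185 and 34 to 28 bases before that of Defa31. Defa31 also held 2 TCF/LEF matches, at 114 to 108 and 74 to 68 bases before the start, whereas the window of AY761185 held none. Over all 32851 promoters of the table, 3.21% held a TCF/LEF match and 9.81% a CDX match in these 250 bases. Among the 17 alpha-defensin promoters of the table, 13 held a TCF/LEF match and 14 a CDX match. These promoters are near copies of each other and not independent. The T-box motif AGGTGTGA, present in 1.12% of all promoters, and a core of paired p53 half-sites, present in 0.49%, matched 0 of the 17. With motifs this rare, 0 matches among 17 promoters would be likely for any genes, so nothing is read from it. In a global alignment 74.1% of columns were identical between the AY761185 and Defa31 windows. The Defa31 window was identical in 100% of its 250 columns to that of Defa23, another gene of the cluster. The sequences of the array probes were not used here, so each of the 3 rows may read more than 1 of these near copies, which was not tested.

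Deposited intensities were background-subtracted by the scanner software, and a probe was taken as detected on an array at a detection p under 0.05. For the comparisons, intensities were background-corrected, quantile-normalized and set on a log2 scale, and 15151 of the 25697 probes were tested, those detected on at least 3 arrays. All 3 members passed this filter. Between 11733 and 13685 probes were detected per array, and replicate arrays correlated with r from 0.990 to 0.997 across probes. By their lowest detected intensity the arrays formed 2 sets. It lay between 12.9 and 20.9 for Bub1b_R with Ctrl_R (12 arrays) and between 27.8 and 58.1 for the other 3 clones (18 arrays), so a difference in level between clones of different sets and a difference between the sets cannot be told apart. Ppm1g intensity in Ppm1g_R was lower without Dox (log2 change -1.25 ± 0.10 SE, limma adjusted p = 4.5e-09). The Bub1b probe (-0.14 ± 0.08, adjusted p = 0.217) and the Ppp2r1b probe (0.20 ± 0.15, adjusted p = 0.365) did not pass the test in their own clones. The brightest Chek1 probe was higher without Dox (0.71 ± 0.16, adjusted p = 0.00115). It was detected on 3 of 3 arrays labelled Chek1_R without Dox and 0 of 3 with Dox. Of the other Chek1 probes, ILMN_3009652 was detected on 1 of these arrays, without Dox, and ILMN_2666965 on 0. In the paper the Chek1 and Bub1b cDNAs lack the sequence that the shRNA targets. A probe that reads the cDNA would be lower without Dox, whereas for one that does not the labels give no direction. Whether any of these probes also reads the introduced cDNA was not tested. On the arrays labelled Chek1_R without Dox, T and Mixl1 were higher (4.44 and 2.75) and Fgf4 and Utf1 lower (-0.91 and -0.80). Each was called in the same direction in Bub1b_R. Klf4, another ESC gene, went the other way (0.52, against -0.48 in Bub1b_R), and Nanog (0.04) and Zfp42 (0.005) hardly moved. At an unadjusted limma p under 0.05, 6 of 9 listed ESC genes were lower on these arrays without Dox and 1 was higher. The share of all tested probes past this limit is not given here, so nothing about the label is read from the count. The median change of the 9 was -0.31, against -0.016 over all tested probes. The arrays labelled Chek1_R are referred to by that label, and every direction drawn from them rests on it.

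ESC identity was checked by its markers. All 9 of 9 listed ESC genes on the array were detected on all 30 arrays, Pou5f1, Nanog and Sox2 among them. Without Dox, Fgf4 fell in Bub1b_R (-0.96), in the arrays labelled Chek1_R (-0.91) and in Ppm1g_R (-0.75), and Utf1 fell in Bub1b_R (-0.63), Chek1_R (-0.80) and Ppp2r1b_R (-0.68). Esrrb (-0.83) and Zfp42 (-0.80) fell in Ppp2r1b_R. A call required a limma adjusted p under 0.05 and at least 1.5-fold. Of the 9, 2 were called lower in Bub1b_R, 2 in Chek1_R, 1 in Ppm1g_R and 3 in Ppp2r1b_R. Of all tested probes, 2.67%, 4.77%, 2.07% and 2.05% were called lower, respectively. Pou5f1, Nanog, Sox2, Klf4 and Tdgf1 were called in no clone, and none of the 9 was called in Ctrl_R.

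LOC100044289, a predicted locus named on the array, was detected on 27 of 30 arrays. In the arrays labelled Chek1_R its deposited intensities were 91.8, 125.9 and 91.0 with Dox and 5064.5, 8025.3 and 6205.9 without. In Bub1b_R they were 329.6, 279.6 and 207.6 with Dox and 1670.3, 1399.8 and 1337.2 without. In these 2 clones every array without Dox was several times brighter than every array with Dox. In Ppp2r1b_R the values were 439.0, 526.6 and 776.6 with Dox and 1773.2, 1766.3 and 2534.5 without. In Ppm1g_R they were 711.4, 808.4 and 1164.8 with Dox and 1522.8, 2140.1 and 1891.4 without. The groups did not overlap in these clones either, but the Ppm1g_R arrays with Dox already lay close to those without. In Ctrl_R the 3 arrays with Dox read 8.0, 4.3 and 3.7, none of them detected, and the 3 without Dox read 61.8, 44.9 and 42.8, all detected.

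Defcr-rs7, a cryptdin-related sequence of the CRS4C group by its synonyms, was detected on 23 of 30 arrays. In the arrays labelled Chek1_R it read 31.6, 17.3 and 14.4 with Dox, undetected on each, and 1624.8, 2072.3 and 1814.5 without. In Bub1b_R it read 109.2, 125.0 and 115.8 with Dox and 633.5, 564.3 and 614.8 without. The 2 groups of arrays were thus far apart in both clones. In Ppm1g_R the intensities were 176.2, 199.7 and 236.7 with Dox and 477.5, 571.7 and 550.9 without. In Ppp2r1b_R they were 152.5, 157.2 and 180.5 with Dox and 532.6, 597.3 and 632.6 without. With Dox, Bub1b_R, Ppm1g_R and Ppp2r1b_R lay in a similar range, whereas the arrays labelled Chek1_R were below detection. In Ctrl_R the values were 5.8, 8.2 and 4.5 with Dox, undetected, and 20, 23.6 and 10.5 without, of which the first 2 were detected.

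AY761185, a gene at one end of the alpha-defensin cluster, was detected on 20 of 30 arrays. In the arrays labelled Chek1_R it read 23.9, 22.7 and 7.5 with Dox, undetected, and 638.2, 964.3 and 756.3 without. In Bub1b_R it read 27.4, 16.4 and 18.2 with Dox, the first and the last of which were detected, and 132.8, 87.8 and 132.4 without. Thus the values with Dox lay near or below detection in these clones, unlike those of LOC100044289, which was detected on all 6 of these arrays. In Ppm1g_R it read 81.0, 104.1 and 124.1 with Dox and 280.4, 258.0 and 243.9 without. In Ppp2r1b_R it read 56.5, 56.3 and 75.5 with Dox and 230.7, 224.8 and 299.0 without. Neither clone showed any overlap between the groups. In Ctrl_R all 6 arrays were undetected, at 11.5, 11.0 and -1.4 with Dox and 10.2, -0.2 and -5.2 without.

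**Figure D1:**
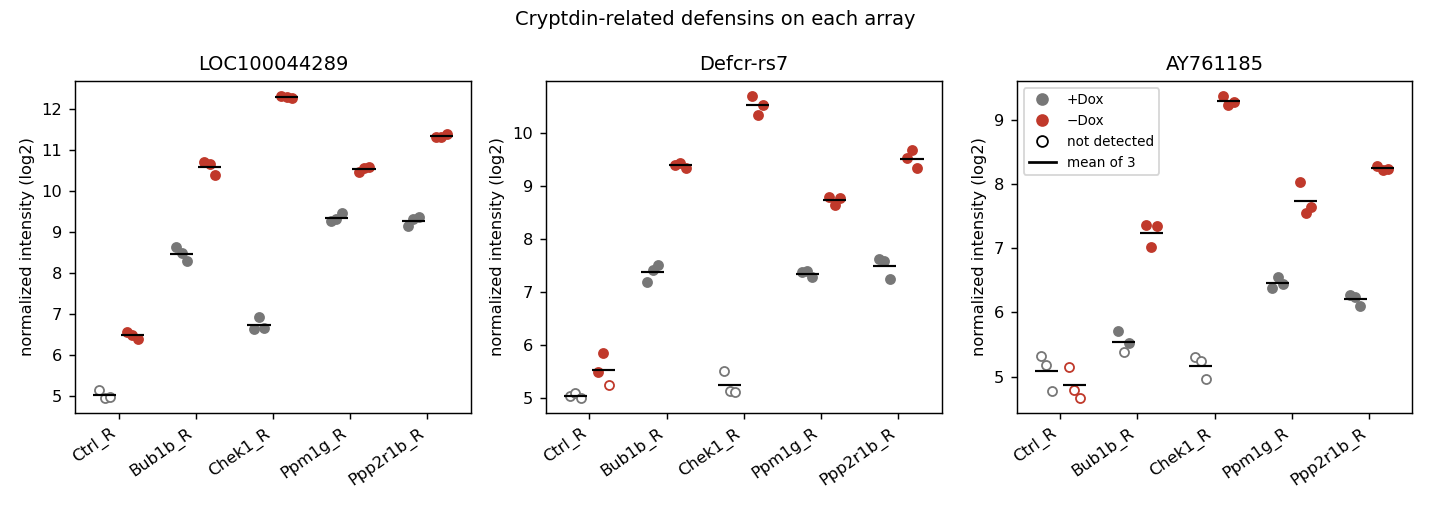
Normalized intensity (log2, vertical axis, 1 scale per panel) of LOC100044289, Defcr-rs7 and AY761185 on each of the 30 arrays, by clone. Grey points are arrays with Dox, red points arrays without Dox, open points arrays on which the probe was not detected, and black lines the mean of 3 arrays. In each of the 4 rescue clones the 3 red points lie above the 3 grey points for every member, and in Ctrl_R this holds for LOC100044289 and Defcr-rs7 only.

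On the normalized log2 scale the change on withdrawal of Dox was largest in the arrays labelled Chek1_R for all 3 members, at 5.54 ± 0.10 (SE, 3 arrays against 3) for LOC100044289, 5.27 ± 0.13 for Defcr-rs7 and 4.12 ± 0.14 for AY761185. For LOC100044289 this is 46.7-fold. Since the other members were undetected with Dox there, their intensities without Dox were at least 30.7-fold (Defcr-rs7) and at least 13.1-fold (AY761185) higher than the lowest signal among detected probes. In Bub1b_R the changes were 2.12 ± 0.10, 2.03 ± 0.13 and 1.70 ± 0.14 for LOC100044289, Defcr-rs7 and AY761185, respectively. They were close to those in Ppp2r1b_R, 2.06, 2.03 and 2.04, with the same errors. Ppm1g_R gave the smallest changes of the 4 clones, 1.18 for LOC100044289, 1.39 for Defcr-rs7 and 1.28 for AY761185.

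**Figure D2:**
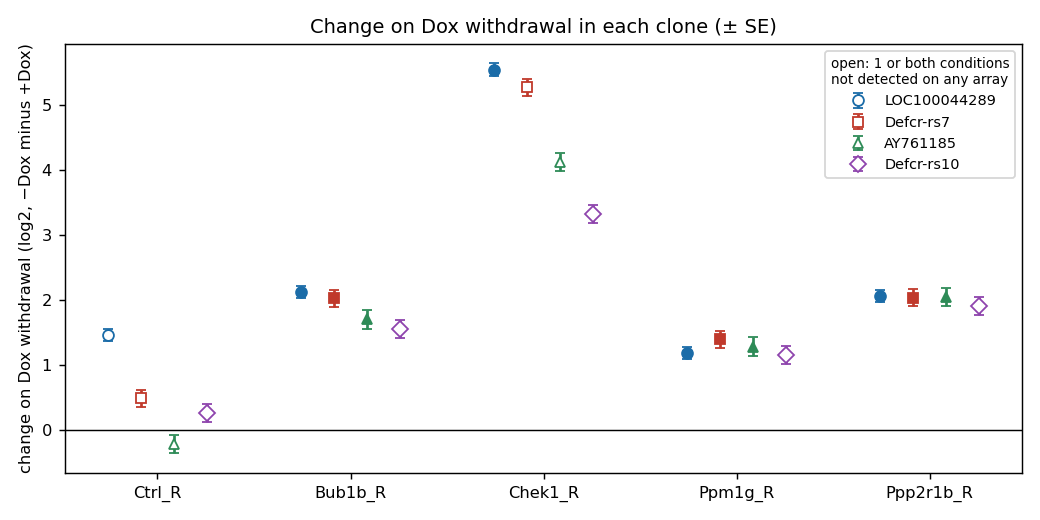
Change on Dox withdrawal (log2, without Dox minus with Dox, vertical axis) of the 3 members and of Defcr-rs10 in each clone (horizontal axis), as the estimate ± SE from limma over 3 arrays against 3. Open symbols mark comparisons in which 1 or both conditions had no array with the probe detected. All 4 probes stand highest in the arrays labelled Chek1_R (3.33 to 5.54), and in Ctrl_R only LOC100044289 lies above 1 (1.46).

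The mean of the 4 changes, by which the members had been selected, was 2.73 for LOC100044289, 2.68 for Defcr-rs7 and 2.29 for AY761185. These were ranks 1, 2 and 5 among the 15151 tested probes. Leaving out Chek1_R, in which the brightest Chek1 probe was higher without Dox, the means over the other 3 clones were 1.79, 1.82 and 1.68, at ranks 5, 4 and 8. With the Chek1_R labels turned, the means over the 4 clones would be -0.046, 0.045 and 0.23. Over the 4 clones as labelled, ranks 3 and 4 were T (2.43) and Evx1 (2.41), transcription factors of the primitive streak, and the next probes after AY761185 were those of Klhl6 (2.26), Cxx1c (2.25) and Usp18 (2.22). The share of all tested probes called higher (adjusted p under 0.05 and at least 1.5-fold) was 2.94% in Bub1b_R, 4.49% in Chek1_R, 2.3% in Ppm1g_R and 2.77% in Ppp2r1b_R. The share called lower was 2.67%, 4.77%, 2.07% and 2.05%, respectively. All 3 members were past this limit in each of the 4 clones, and nothing is read from that, since these contrasts chose them.

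Because the choice rested on these 4 changes, their differences are likewise given as a description, as the difference ± SE for each of the 6 pairs of clones and with no test. Between the largest and the smallest change lay 4.36 log2 units for LOC100044289, 3.88 for Defcr-rs7 and 2.84 for AY761185. The pairs with Chek1_R lay farthest apart. The change of LOC100044289 in Chek1_R exceeded that in Ppm1g_R by 4.36 ± 0.13, that in Ppp2r1b_R by 3.48 ± 0.13 and that in Bub1b_R by 3.43. For Defcr-rs7 these differences were 3.88, 3.24 and 3.25, and for AY761185 they were 2.84, 2.08 and 2.42.

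Differences among the other 3 clones were smaller. The change in Ppm1g_R was below that in Ppp2r1b_R by 0.88 ± 0.13 for LOC100044289, by 0.64 ± 0.19 for Defcr-rs7 and by 0.76 ± 0.20 for AY761185. It was below that in Bub1b_R by 0.94 ± 0.13, 0.64 ± 0.19 and 0.42 ± 0.20, respectively. The change in Bub1b_R minus that in Ppp2r1b_R was 0.05 ± 0.13 for LOC100044289, -0.01 ± 0.19 for Defcr-rs7 and -0.34 ± 0.20 for AY761185.

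Dox withdrawal in Ctrl_R, which shows the response without depletion of a targeted phospho-regulator, was not used in the choice. LOC100044289 rose there, by 1.46 ± 0.10 on the log2 scale (limma adjusted p = 5.6e-10), in 3 of 3 arrays against each of the 3 with Dox. As it was undetected with Dox, this is at least 1.94-fold. Defcr-rs7 changed by 0.48 ± 0.13 (adjusted p = 0.0257), under the 1.5-fold limit and so not called, and over the alternative settings its adjusted p ran from 0.000702 to 0.461. It was called without background correction (1.48) and without the third Ctrl_R array without Dox (0.63, adjusted p = 0.00776). AY761185, undetected in both conditions, gave -0.22 ± 0.14 (adjusted p = 0.381). Over all tested probes 0.706% were called higher and 0.396% lower in Ctrl_R, so 1 of the 3 members stood against a background below 1%. The call of LOC100044289 did not hold with a background offset of 200 in place of 16, which left 0.34 (adjusted p = 0.000382), under the fold limit.

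The 10 conditions followed nearly the same order for each member. For LOC100044289 the mean normalized intensity (log2) ran from 12.29 ± 0.02 (SD, n = 3) in Chek1_R without Dox through Ppp2r1b_R (11.33 ± 0.04), Bub1b_R (10.58 ± 0.17) and Ppm1g_R (10.53 ± 0.07) without Dox. Below these came Ppm1g_R (9.35 ± 0.10), Ppp2r1b_R (9.27 ± 0.12), Bub1b_R (8.46 ± 0.17) and Chek1_R (6.74 ± 0.16) with Dox, then Ctrl_R without (6.48 ± 0.09) and with Dox (5.02 ± 0.10). Only Bub1b_R and Ppm1g_R without Dox, and Ppm1g_R and Ppp2r1b_R with Dox, overlapped between neighbours in this order. For Defcr-rs7 the order was Chek1_R (10.52 ± 0.18), Ppp2r1b_R (9.51 ± 0.17), Bub1b_R (9.39 ± 0.05) and Ppm1g_R (8.74 ± 0.08) without Dox. With Dox, Ppp2r1b_R (7.48), Bub1b_R (7.37) and Ppm1g_R (7.34) overlapped as neighbours, and Ctrl_R without Dox (5.52 ± 0.30), Chek1_R with Dox (5.25 ± 0.22) and Ctrl_R with Dox (5.04 ± 0.04) closed the order at or near the limit of detection. For AY761185, Chek1_R (9.29 ± 0.07), Ppp2r1b_R (8.25 ± 0.04), Ppm1g_R (7.74 ± 0.26) and Bub1b_R (7.24 ± 0.19) without Dox stood above Ppm1g_R (6.46), Ppp2r1b_R (6.20) and Bub1b_R (5.54) with Dox, with no overlap between neighbours. The remaining 3 conditions, in which it was undetected, lay between 4.87 and 5.17 and overlapped. Thus with Dox the members were well above the Ctrl_R level in Ppm1g_R and Ppp2r1b_R, where clone and array set cannot be told apart. In Bub1b_R, which lies in the same array set as Ctrl_R, the level with Dox was 8.46 against 5.02 for LOC100044289 and 7.37 against 5.04 for Defcr-rs7. For AY761185 it was 5.54 ± 0.16 against 5.09 ± 0.28, a much smaller difference near the limit of detection. By their sample numbers the Ctrl_R arrays form a group apart from those of all the rescue clones. Clone and this grouping therefore cannot be told apart in the comparison with Bub1b_R either.

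Of the 15 other alpha-defensin rows, which were not chosen by their values, 7 were detected on no array and 9 were not tested for lack of detection. The 6 tested rows were those of Defcr-rs10, Defcr26, 1 of 2 rows of Defcr6 and 3 of 4 rows of Defa1. Defcr-rs10, another cryptdin-related sequence, was undetected on all 15 arrays with Dox and on the 3 Ctrl_R arrays without Dox. Without Dox its deposited intensities were 254.1, 446.2 and 315.8 in Chek1_R, 79.6, 42.8 and 62.9 in Bub1b_R, 120.4, 107.7 and 85.3 in Ppm1g_R and 102.5, 104.4 and 118.5 in Ppp2r1b_R, all detected. It rose in all 4 clones, by 3.33 ± 0.13 in Chek1_R (adjusted p = 1.3e-15, at least 5.79-fold), 1.90 in Ppp2r1b_R (adjusted p = 3.1e-10, at least 2.59-fold), 1.56 in Bub1b_R (adjusted p = 5.6e-09, at least 2.01-fold) and 1.15 in Ppm1g_R (adjusted p = 8.9e-07, at least 1.91-fold). In Ctrl_R its value was 0.26 ± 0.13 (adjusted p = 0.273).

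Defcr26, listed as Defa26 and a cryptdin by name, rose in Chek1_R (1.40 ± 0.16, adjusted p = 2.7e-07) and in Bub1b_R (0.85 ± 0.16, adjusted p = 0.000331), where it was detected on 3 and 2 of the 3 arrays without Dox and on none with Dox, which bounds the difference at no less than 1.65-fold and 1.08-fold. Its values in Ppm1g_R (0.42) and Ppp2r1b_R (0.34) did not pass. The tested Defcr6 row rose in Ppp2r1b_R alone among the 5 clones (0.63 ± 0.17, adjusted p = 0.00722), where it was undetected with Dox and at least 1.06-fold higher without. The rows of Defa1 disagreed with each other. One rose in Chek1_R (1.01 ± 0.16) and Ppp2r1b_R (0.76 ± 0.16), another was lower without Dox in Ppm1g_R (-0.73 ± 0.14), its 3 arrays with Dox being the only ones of the 30 on which it was detected, the third was detected on 25 of 30 arrays and called in no clone, and the fourth was detected on no array. As the first was undetected with Dox and the second without, these are differences of at least 1.15-fold in Chek1_R, 1.05-fold in Ppp2r1b_R and 1.46-fold in Ppm1g_R. Every called row was detected with Dox on no array of the clone concerned, or for that Defa1 row without Dox on none, so several rows entered the test only through the condition in which they were high. With no detection filter, all 15 rows and all 25697 probes could be tested, and 2 of 15 rows were called in Bub1b_R (against 3.32% of all probes in either direction), 3 in Chek1_R (5.47%), 2 in Ppm1g_R (2.55%), 3 in Ppp2r1b_R (2.81%) and 0 in Ctrl_R (0.634%). In Ctrl_R 1 of the 15 had an unadjusted p under 0.05 by limma, and the methods' t-test called 0 of the 6. The count was 1 in each of the 4 clones with the stricter detection limit, which leaves fewer rows to test, and no row other than Defcr-rs10 was called in more than 2 clones. In the limma F-test of differences among the 4 clones, which 24% of tested probes passed, Defcr-rs10 gave an adjusted p of 4.8e-08, with 2.18 log2 units between Chek1_R and Ppm1g_R. The rows of Defcr4, Defcr5, Defcr20 (2 rows), Defcr21, Defcr-rs12, Defa-ps1 and the second row of Defcr6 were detected on at most 1 array each.

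**Figure D3:**
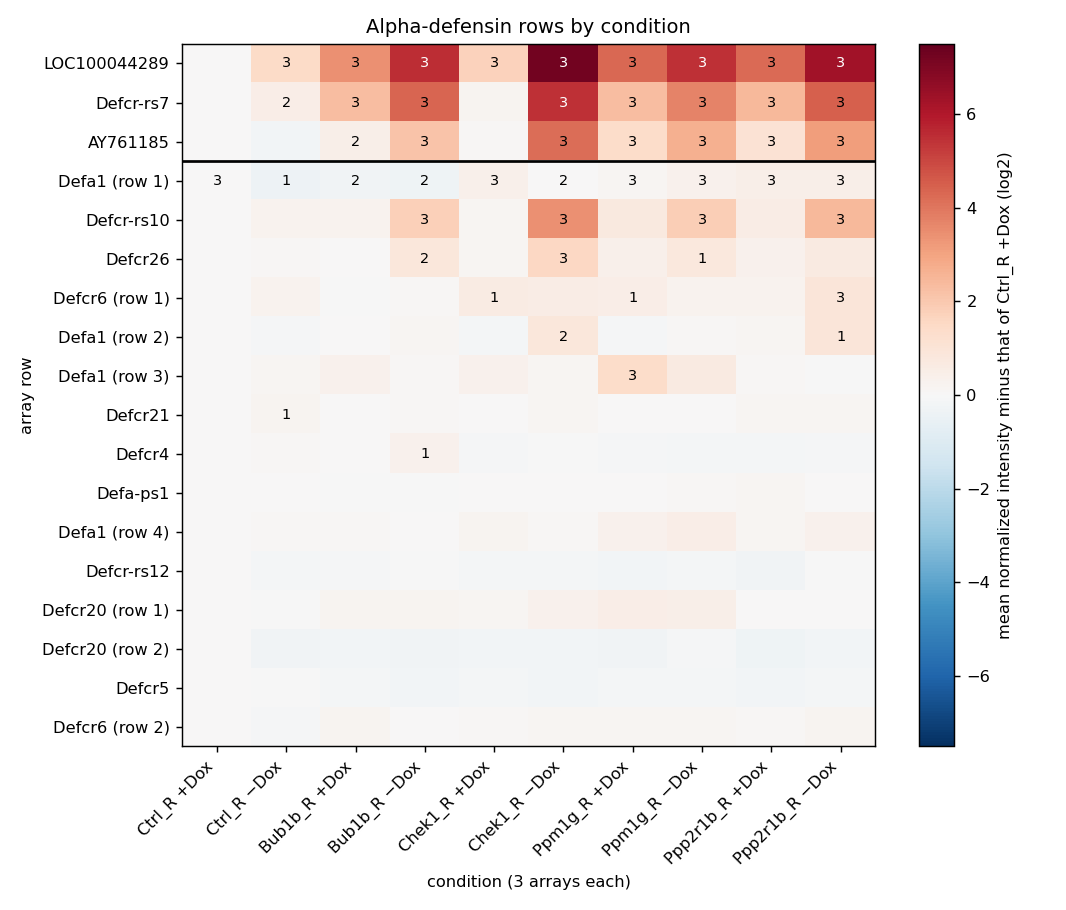
Mean normalized intensity of the 3 members and the 15 other alpha-defensin rows (vertical axis) in each condition (horizontal axis) minus that row's own mean in Ctrl_R with Dox, as colour (log2), with the number of the 3 arrays on which the probe was detected printed in the cell where it is above 0. The 3 members above the black line and Defcr-rs10 carry the strongest colours without Dox, while 7 rows show no detection anywhere.

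Across the 10 condition means, the members correlated with each other at r = 0.977 (LOC100044289 and Defcr-rs7), 0.948 (Defcr-rs7 and AY761185) and 0.936 (LOC100044289 and AY761185). These points share arrays and normalization, and the members share their choice. Defcr-rs10 correlated with AY761185 at 0.980, with Defcr-rs7 at 0.925 and with LOC100044289 at 0.894. The profile of Defcr26 followed at 0.937, 0.873 and 0.854 for the same 3 members.

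Outside the alpha-defensins, the 5 symbols with the highest r over the same 10 conditions were taken for each member among 5268 probes whose means span at least 1 log2 unit. For LOC100044289 they were Nedd9 (0.989), a docking protein of focal adhesions, Irgm (0.985) and Gbp3 (0.975), interferon-inducible GTPases, 8430415E04Rik (0.982) and Nt5e (0.979), the ectonucleotidase CD73. For Defcr-rs7 they were Psmb8 (0.989), an inducible immunoproteasome subunit, Parp14 (0.978), a mono-ADP-ribosyltransferase, Chst7 (0.970), a sulfotransferase, Tapbpl (0.968), a chaperone of MHC class I peptide loading, and Emilin1 (0.966), an extracellular matrix protein. For AY761185 they were Tdrd7 (0.965), a tudor domain protein, Dcn (0.962), the matrix proteoglycan decorin, Ube1l (0.957), the activating enzyme for the ubiquitin-like modifier ISG15, LOC100048346 (0.957) and Pde1a (0.955), a phosphodiesterase. Irgm rose in all 5 clones, by 2.75 in Chek1_R, 1.48 in Bub1b_R, 0.83 in Ppp2r1b_R, 0.74 in Ppm1g_R and 0.62 in Ctrl_R, where it was undetected with Dox and no lower bound above 1-fold could be set. Gbp3 also rose in Ctrl_R (0.93), as well as in Chek1_R (2.35), Bub1b_R (1.39) and Ppp2r1b_R (0.94). The other 13 symbols were not called in Ctrl_R. Among them Psmb8 (at least 2.43-fold), Tapbpl (2.44), Pde1a (1.43), Dcn (1.91) and LOC100048346 (11.5) were undetected with Dox and called higher without in Chek1_R.

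Genes of the primitive streak, the structure from which mesoderm and endoderm arise, were higher in the same conditions. Of the 8 listed genes, all tested, 8 were called higher in Bub1b_R and 8 in Chek1_R, 6 in Ppm1g_R, 4 in Ppp2r1b_R and 2 in Ctrl_R, with 0 called lower. Of all tested probes, 2.94%, 4.49%, 2.3%, 2.77% and 0.706% were called higher, respectively. The calls in Ppp2r1b_R include Eomes (0.64), which was detected on no array of that clone. In the same order of clones, the median change of the 8 genes was 2.12, 2.67, 1.00, 0.60 and 0.12. The median over all tested probes lay farthest from 0 in Chek1_R, at -0.016. T, a T-box factor of early mesoderm, rose by 4.44 in Chek1_R, 2.31 in Bub1b_R, 1.90 in Ppp2r1b_R and 1.05 in Ppm1g_R, and by 0.75 in Ctrl_R. Evx1, a homeobox factor of the posterior streak, rose by 4.10, 2.38, 1.54 and 1.60 in the same 4 clones and gave -0.28 in Ctrl_R. Mixl1, a homeobox factor of mesendoderm, rose most in Bub1b_R (3.24), then Chek1_R (2.75) and Ppm1g_R (2.31), and gave 0.31 in Ppp2r1b_R, where it was not called. As Mixl1 was undetected with Dox in Chek1_R and Ppm1g_R, these are at least 3.67-fold and 3.42-fold. Fgf8, a growth factor of the streak, rose by 3.61 in Chek1_R, 1.70 in Ppp2r1b_R, 1.41 in Bub1b_R and 0.76 in Ctrl_R, and its 0.43 in Ppm1g_R was under the fold limit. Over the 10 conditions T correlated with LOC100044289 at r = 0.908, with Defcr-rs7 at 0.927 and with AY761185 at 0.810. For Evx1 these were 0.779, 0.843 and 0.766, and for Mixl1 0.620, 0.703 and 0.627.

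Cdx2, a caudal homeobox factor of the posterior embryo and the intestine, was also higher in the 4 clones. It rose by 3.97 ± 0.15 in Chek1_R (adjusted p = 1.9e-16), 1.73 in Bub1b_R, 1.54 in Ppp2r1b_R and 1.21 in Ppm1g_R, and its value in Ctrl_R was 0.39 (adjusted p = 0.109). Its profile correlated with LOC100044289 at r = 0.912, with Defcr-rs7 at 0.906 and with AY761185 at 0.820. Cdx1, its relative, rose in Chek1_R (0.82), fell in Ctrl_R (-0.69) and was called in no other clone. Of the TCF/LEF factors, Lef1 rose in Bub1b_R (1.30) and Chek1_R (0.87, at least 1.19-fold, being undetected with Dox), while Tcf7l2, Tcf7 and Ctnnb1 (beta-catenin, their partner) were called in no clone.

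**Figure D4:**
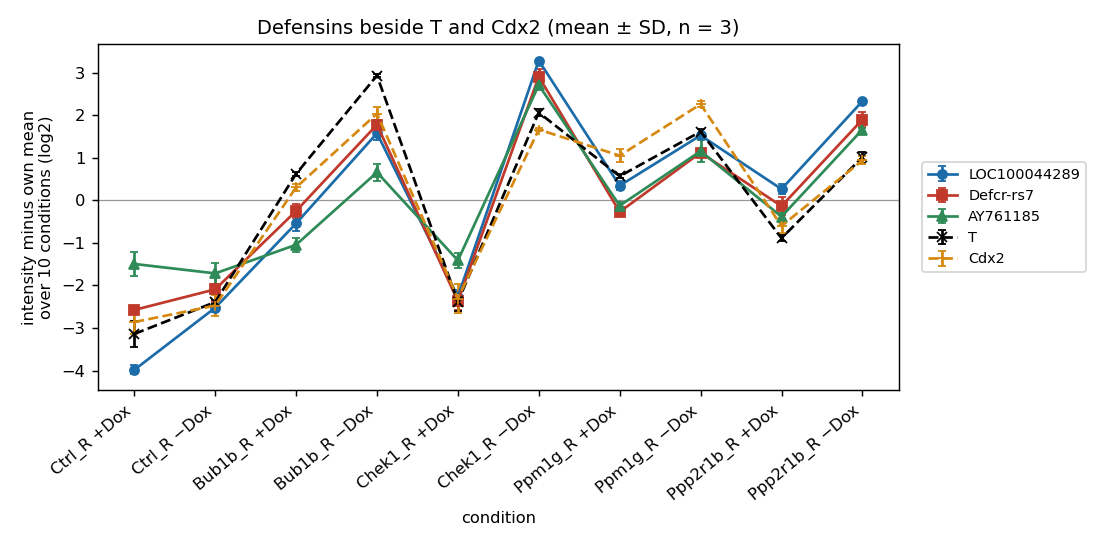
Mean normalized intensity in each of the 10 conditions (horizontal axis) minus the probe's own mean over the 10 conditions (log2, vertical axis), ± SD over 3 arrays, for LOC100044289, Defcr-rs7 and AY761185 (solid lines) and for T and Cdx2 (dashed lines). All 5 lines go up from Dox to no Dox in each of the 4 rescue clones, T and Cdx2 standing highest in Bub1b_R or Ppm1g_R without Dox and the defensins in Chek1_R without Dox.

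Most markers of the cells that normally make alpha-defensins were not detected. Of 20 listed Paneth cell genes, 19 were on the array, 6 were tested and 0 were called in any of the 5 clones by limma. Over the clones, 0.706% to 4.49% of all tested probes were called higher and 0.396% to 4.77% lower. In a given clone 0 of 6 would thus be likely for any genes, so nothing is read from it. At an unadjusted p under 0.05, 1 of the 6 was lower in each of the 4 rescue clones and 2 in Ctrl_R, and 0 were higher. Lyz1, Lyz2, Mmp7, Ang4, Pla2g2a, Itln1, Reg3a, Reg3b, Reg3g, Sox9 and Spdef were detected on 0 of 30 arrays. The tested Paneth genes with the largest mean change over the 4 clones were Fzd5 (-0.32), a Wnt receptor detected on all arrays, Gfi1 (0.17) and Cd24a (0.13). Among the intestinal epithelial genes other than Cdx1 and Cdx2, Fabp2, Lgr5, Olfm4 and Cdh17 were detected on 0 arrays, Vil1 on 3, and Krt20 fell in Chek1_R (-0.73).

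Most other antimicrobial genes were below detection. Of 13 listed, 11 were on the array and 2 were tested. Slpi, a secreted protease inhibitor of mucosal surfaces, rose in all 4 clones, by 2.04 in Chek1_R, 1.39 in Ppp2r1b_R, 1.11 in Bub1b_R and 0.70 in Ppm1g_R. It was undetected with Dox in each, which makes these at least 2.93-fold, 1.57-fold, 1.69-fold and 1.09-fold. Pglyrp1, a peptidoglycan recognition protein, rose in Chek1_R (2.54, at least 4.32-fold), Ppp2r1b_R (1.40) and Bub1b_R (0.99) and gave -0.15 in Ppm1g_R. Neither was called in Ctrl_R. Camp, Ltf, Lcn2, S100a8, S100a9, Ngp and Bpi, genes of neutrophil granules, were detected on 0 arrays. Of 7 leukocyte genes on the array, Mpo, Itgam and Emr1 were detected on 0 arrays and Ptprc on 1, 3 were tested, and Cd68 was the only one called, higher in Ppp2r1b_R (0.62) and lower in Ppm1g_R (-0.71).

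Beta-defensins, another defensin family of mouse, were mostly below detection. Of 34 symbols on the array 6 were tested, and 0 were called higher in any clone by limma (0 also at an unadjusted p under 0.05). Between 0.706% (Ctrl_R) and 4.49% (Chek1_R) of all tested probes were called higher. With so few tested, 0 of 6 would be likely for any genes, so nothing is read from it. Called lower were 2 in Bub1b_R, 2 in Chek1_R, 2 in Ppm1g_R and 1 in Ppp2r1b_R, against 2.67%, 4.77%, 2.07% and 2.05% of all tested probes. Defb20 fell in all 4 clones (-0.65 to -1.13), and Defb42 fell in Bub1b_R (-1.12), Chek1_R (-0.65) and Ppm1g_R (-1.14), though in Chek1_R it was detected on 1 array with Dox and 0 without. The 5 genes nearest on each side of the alpha-defensin cluster with a probe under their current symbol were all beta-defensins. They need not adjoin the cluster. Defb7, the nearest on one side, ends at base 19497775 of chromosome 8, while the cluster starts at 20943694. Genes that the array lists under an older symbol were not matched. On the one side, Defb4, Defb6, Defb7 and Defb8 were detected on 0 arrays and Defb5 on 4, with values from -0.17 to 0.29 over the clones and no call. On the other, Defb1, Defb2, Defb9, Defb10 and Defb50 were detected on 0 arrays.

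Fibroblast genes were read for feeder cells carried along. Of 11 listed, 10 were on the array and 6 were tested, with 1 called higher in Bub1b_R, 3 in Chek1_R, 2 in Ppm1g_R and 3 in Ppp2r1b_R, 1 called lower in Chek1_R and 1 in Ppm1g_R, and 0 in Ctrl_R. Their median change was 0.36, 0.51, 0.45, 0.51 and -0.01, respectively. Of all tested probes, 2.94%, 4.49%, 2.3%, 2.77% and 0.706% were called higher in the same order of clones. The shares called lower were 2.67%, 4.77%, 2.07%, 2.05% and 0.396%. Dcn rose by 0.68 in Bub1b_R, and in Chek1_R, Ppm1g_R and Ppp2r1b_R, where it was undetected with Dox, it was at least 1.91-fold, 1.25-fold and 1.31-fold higher without. Col1a1, a collagen chain, rose in Chek1_R (1.06), Ppp2r1b_R (1.03) and Ppm1g_R (0.91), whereas Thy1, a fibroblast surface protein, fell in Chek1_R (-0.81) and Ppm1g_R (-0.61). Col1a2, S100a4, Postn and Lum were detected on 0 arrays. The summed deposited intensity of the 10 probes was 590.0 to 672.6 with Dox and 654.4 to 962.2 without in Chek1_R, 442.5 to 489.1 and 498.9 to 616.0 in Bub1b_R, 568.4 to 839.8 and 632.8 to 841.2 in Ppm1g_R, 476.5 to 680.3 and 514.7 to 817.3 in Ppp2r1b_R and 394.1 to 525.7 and 426.4 to 534.9 in Ctrl_R. The part of feeder cells in the result was not tested.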

How the data were processed

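Total RNA of 30 samples was labelled with biotin and hybridized to Illumina mouse WG-8 BeadChips by a service company. The authors deposited 1 table of non-normalized, background-subtracted intensity per probe and array with its detection p-value, and lumi is named without a version in the submitters' processing notes. Detection p-values of 2 arrays had been turned into dates by a spreadsheet (46 in Ppm1g_R without Dox, replicate 2, and 14 in Bub1b_R without Dox, replicate 2). Of these 60, 34 were converted back and 26 were set to the p-value of the probe nearest in intensity on that array, none of them in an alpha-defensin row.

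Intensities were corrected by normexp with detection p-values (offset 16), quantile-normalized and set on a log2 scale (neqc, limma 3.58.1, R 4.3.3). Probes detected (p under 0.05) on fewer than 3 arrays were not tested. limma fitted 1 mean per condition over 30 arrays (20 residual degrees of freedom, 3.38 of the prior), with Benjamini-Hochberg adjustment over 15151 probes. The methods' t-test, which the study names for its experiments in general, was an alternative. Motifs and pairwise identity were computed with Biopython 1.88. Differences among the 4 clones were planned as F-tests and pairwise tests for the members too, but their p-values are not given, because the members were chosen on the same changes. Scripts were tested on simulated data. The members and gene lists were chosen with earlier results of these data known. Genes were named by rule: the alpha-defensin rows (1 row is not reported here), up to 3 genes per list with the largest mean change over the 4 clones, those called in Ctrl_R, the 5 most alike per member, the targeted genes and 5 genes on each side of the cluster. Other genes of a list were named where their detection or change describes the list. Values of further ESC genes and the Cdx2 correlations were added after they were seen. Aurka_R arrays were not analysed here.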

Additional observations from a re-analysis of the deposited data

Results flagged for a closer look

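The change on Dox withdrawal of Defcr-rs10, a cryptdin-related sequence that is not among the 3 members, differed among the 4 rescue clones in the limma F-test (adjusted p = 4.8e-08). The change was largest in the arrays labelled Chek1_R (3.33), on which the brightest Chek1 probe was higher without Dox, and smallest in Ppm1g_R (1.15). Defcr-rs10 was detected on 12 of 30 arrays, all without Dox, so it entered the test only through the condition in which it was high. Its profile followed that of the chosen member AY761185 (r = 0.980). Whether its probe reads the same near copies as the members was not tested, so the p-value is not independent of the choice. The cause of the difference was not tested.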

How the results depend on the processing

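The largest and the smallest change of AY761185 among the 4 clones lay 4.04 log2 units apart without background correction, against 2.84. With the labels of Chek1_R turned, an alternative chosen after seeing the data, the mean change over the 4 clones was -0.046 for LOC100044289. In Ctrl_R, LOC100044289 stayed called except with an offset of 200 (0.34), and Defcr-rs7 became called without background correction (1.48), with no fold limit (0.48) and without Ctrl_R replicate 3 without Dox (0.63, adjusted p = 0.00776). AY761185 was negative in Ctrl_R throughout and never called. Leaving out 1 array at a time, the change in Ctrl_R ran from 1.42 to 1.53 for LOC100044289, from 0.33 to 0.63 for Defcr-rs7 and from -0.38 to -0.11 for AY761185. The spread among the clones ran from 4.31 to 4.46, from 3.80 to 4.01 and from 2.74 to 2.98, respectively. With the labels as given, no member changed sign in any of the 4 clones under any alternative of the processing. Larger offsets lowered the values, in Chek1_R to 4.15 for LOC100044289, 2.90 for Defcr-rs7 and 1.88 for AY761185 at an offset of 200.

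Calls of other alpha-defensin rows numbered 2 in Bub1b_R, 3 in Chek1_R, 2 in Ppm1g_R, 3 in Ppp2r1b_R and 0 in Ctrl_R, and the same numbers with no detection filter. With an offset of 50 they were 1 in Bub1b_R, 1 in Ppm1g_R and 1 in Ppp2r1b_R, and with an offset of 200 they were 0, 0 and 0, with 1 in Chek1_R. With the stricter detection limit (p under 0.01 on every array of at least 1 condition) the count was 1 in each of the 4 clones. A 2-fold limit left 1 in Bub1b_R, 1 in Ppm1g_R and 1 in Ppp2r1b_R. The methods' t-test left 1 in Ppm1g_R and 1 in Ppp2r1b_R, as did the absence of background correction. Leaving out 1 array gave 2 in Bub1b_R, 2 to 3 in Chek1_R, 1 to 2 in Ppm1g_R, 2 to 3 in Ppp2r1b_R and 0 in Ctrl_R, the 1 in Ppm1g_R arising when any of its 3 arrays with Dox was left out, since a Defa1 row detected on those 3 arrays alone then drops below the filter.

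The deviations of samples with the same replicate number correlated weakly (r from -0.08 to 0.13). In Bub1b_R each replicate still matched its own number best (r = 0.087, 0.022 and 0.073). In the other clones only replicate 1 of Chek1_R and replicate 3 of Ppp2r1b_R did so. With 3 arrays per condition, these values cannot decide whether the numbers pair the samples. With the replicate block the change in Ctrl_R was 1.46, 0.48 and -0.22 for LOC100044289, Defcr-rs7 and AY761185 and no call was lost or gained. Fitting each array set by itself, an alternative chosen after seeing the data, changed no call among those above, and gave 1.40, 0.44 and -0.18 for the same 3 values. Signal over background limits what can be said of the undetected rows.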
